A study of Homo sapiens with 10 samples.

Results

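The genes described here are 10 members of the matrix metalloproteinase system: the collagenases MMP1 and MMP13, the stromelysins MMP3 and MMP10, the gelatinase MMP2, the membrane-bound proteinase MMP14, the secreted inhibitors TIMP1, TIMP2 and TIMP3, and the membrane-anchored inhibitor RECK. They are 10 of the 58174 genes counted, and 9 of them passed the filter on low counts. They were chosen by function and by their measured difference between T348I and wild type, in which MMP1 and MMP13 lie on opposite sides. That difference is therefore given for the members as a description, with no p-value, and nothing is read from how many of them pass a threshold on it.

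Matrix metalloproteinases are zinc-dependent proteinases that are made as inactive precursors and cut collagens, gelatins, proteoglycans and other proteins outside the cell once their propeptide is removed. TIMPs bind their active sites and block them, and TIMP2 also bridges the MMP2 precursor to MMP14 at the cell surface, where MMP14 activates it. In the liver these enzymes are known for the turnover of scar matrix and for invasion by carcinoma cells.

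The cells were SNU-387, a long-established line of pleomorphic hepatocellular carcinoma. They carried a stable copy of wild-type YES (5 libraries) or YES T348I (5 libraries), and the cells of both groups were treated with 100 nM dasatinib. YES is a tyrosine kinase of the SRC family, dasatinib inhibits kinases of that family, and T348I replaces the gatekeeper residue of the drug's binding pocket. No untreated cells were analysed here, so the values compare mutant with wild-type kinase under the drug and not the drug with its absence. Titles of the samples are written in 2 ways. For each genotype, 3 libraries have the longer form (long-title) and 2 the shorter (short-title), and what else distinguishes these sets is not stated. The promoter of the YES construct, and whether a line was 1 clone or a pool, are not given in the sources used here, nor is it said that libraries of a group came from separate cultures. The p-values therefore measure only the spread between these libraries, which may be technical.

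Each library held 10168307 to 16939029 reads in genes. YES1 was listed at 303 ± 102 CPM (TMM-scaled reads of a gene relative to the library's total, mean ± SD, n = 5) with wild-type YES and at 453 ± 86.4 CPM with T348I (log2 fold change 0.59 ± 0.19 SE, edgeR quasi-likelihood adjusted p = 0.0326), and gene counts do not separate the construct from the cell's own gene. Pairs of T348I long-title libraries differed with a chi-square of 1.62 to 2.12 per degree of freedom, where read sampling alone gives about 1, against 13.6 to 52.8 for pairs of wild-type long-title libraries. Wild-type long-title library 1 had 492 genes at least 2-fold above and 330 at least 2-fold below the mean log2 CPM of the other libraries of its set. Of 10 hepatocyte markers, 2 passed the count filter, AFP (19 to 49 reads per library) and SERPINA1 (60 to 286 reads). TTR and CYP3A4 had no read in any library and ALB had at most 1, so the liver label is not borne out by most of these markers. Keratins KRT8 and KRT18 and the mesenchymal collagen COL1A2 were abundant. The epithelial markers EPCAM (5 to 23 reads), CDH1 (at most 3) and KRT19 (at most 2) were not.

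Of the members, 5 had an entry in a table of promoters from RefSeq (GRCh38.p14), namely MMP10, MMP14, TIMP1, TIMP3 and RECK. MMP1, MMP2, MMP3, MMP13 and TIMP2 had none. The 250 bases upstream of the start were searched on both strands for an AP-1 motif (TGAGTCA), an ETS motif (AGGAAG), a RUNX motif (TGTGGT) and a TEAD motif (GGAATG). These letters are found in 4.2%, 28.7%, 11% and 11.9% of 35116 such windows. MMP14 and TIMP3 are shown, being abundant members, on the plus strand at chr14:22836335-22836556 and chr22:32801455-32801700. For TIMP1 the stretch holding its matches is shown, at chrX:47582349-47582370. Capitals mark motif matches.
MMP14: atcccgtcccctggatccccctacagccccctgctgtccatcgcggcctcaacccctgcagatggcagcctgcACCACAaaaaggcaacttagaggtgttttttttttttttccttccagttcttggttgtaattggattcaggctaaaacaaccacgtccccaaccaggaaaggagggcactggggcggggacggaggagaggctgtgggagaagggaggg
TIMP3: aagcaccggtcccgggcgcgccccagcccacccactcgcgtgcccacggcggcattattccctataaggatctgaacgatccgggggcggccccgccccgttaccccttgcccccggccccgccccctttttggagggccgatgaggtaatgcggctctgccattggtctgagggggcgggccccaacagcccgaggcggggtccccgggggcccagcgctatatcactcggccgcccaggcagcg
TIMP1: AGGAAGcctggaggccTGTGGT
The match in MMP14 is the RUNX motif on the opposite strand (ACCACA), 177 to 172 bases before its RefSeq start. That start lies downstream of the gene's first base in GENCODE 29, before which the printed MMP14 stretch ends. TIMP1 holds the ETS motif 87 to 82 bases and the RUNX motif 71 to 66 bases before its RefSeq start, which lies downstream of the gene's first base in GENCODE 29, so this stretch is inside the GENCODE gene. No match to the 4 motifs was found in the windows of MMP10, TIMP3 and RECK. A match is a description of the letters and not evidence of binding.

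Per length of transcript, the system in these cells was made up mainly of TIMP1, MMP2, TIMP3, MMP14 and TIMP2. Their median levels over the 10 libraries, in CPM per kilobase of exon, were 378 for TIMP1, 216 for MMP2, 139 for TIMP3, 121 for MMP14 and 111 for TIMP2. RECK stood at 7.02, and the collagenases and stromelysins came last, with 1.95 for MMP1, 1.25 for MMP3, 0.565 for MMP13 and 0.0192 for MMP10. In the plot of levels per length, each of the first 5 genes overlaps the next in that order, although TIMP1 and MMP2 lie wholly above TIMP2. The ranges of MMP1, MMP3 and MMP13 overlap as well, so neighbours in the order are not separated by the spread over libraries. RECK lay above MMP1 in the median but its lowest library lay below the highest of MMP1, and MMP10 lay below all others in each library. MMP2 and MMP14 together made up 99.1% to 99.6% of the summed metalloproteinase level per length in wild-type libraries and 97.8% to 98.6% in T348I libraries.

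**Figure D1:**
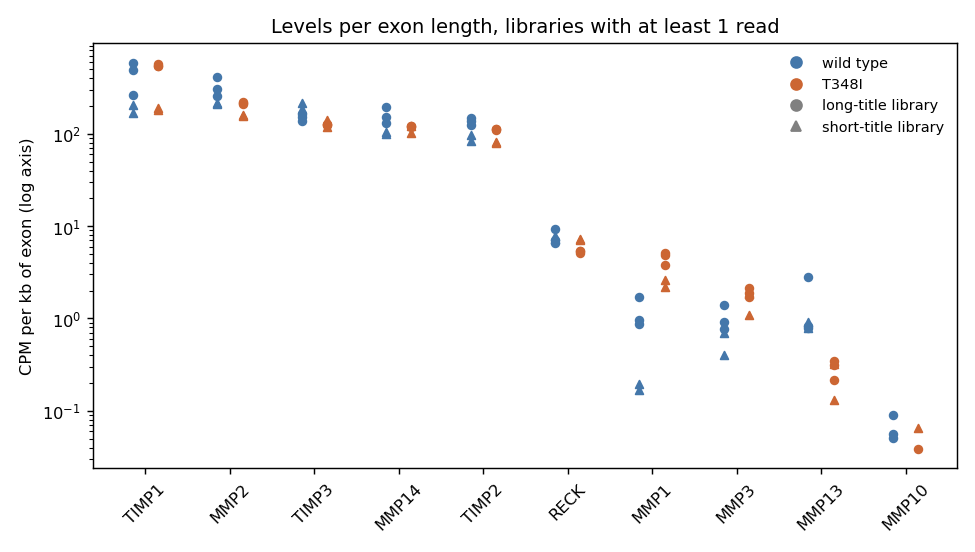
Level of each member per length, in CPM per kilobase of exon on a log axis, with 1 point per library coloured by genotype and shaped by title set. TIMP1, MMP2, TIMP3, MMP14 and TIMP2 have medians from 111 to 378, RECK 7.02, and MMP1, MMP3, MMP13 and MMP10 have medians of 1.95 or less; libraries at 0 reads are not drawn.

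The collagenases were the members with the largest differences between genotypes, in opposite directions. MMP1 (ENSG00000196611.4, chr11:102789920-102798160, minus strand, GRCh38), the interstitial collagenase that cuts fibrillar collagens, stood at 1.72, 3.34 and 1.87 CPM in the wild-type long-title libraries 1 to 3 and at 0.332 and 0.381 CPM in the short-title ones. With T348I it stood at 7.43, 9.69 and 10.2 CPM in the long-title and at 5.10 and 4.36 CPM in the short-title libraries. All T348I libraries lay above all wild-type libraries, and within each genotype the short-title libraries lay lowest. The means were 1.53 ± 1.24 and 7.35 ± 2.62 CPM (SD, n = 5), and the log2 fold change was 2.42 ± 0.28 (SE). These levels rest on 4 to 34 reads per wild-type library and 69 to 142 reads per T348I library. Bulk RNA cannot tell apart fewer cells that express a gene from less RNA of it per cell, here or for the genes below.

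MMP13 (ENSG00000137745.11, chr11:102942995-102955734, minus strand), a collagenase with a preference for type II collagen, stood at 7.92, 2.36 and 2.23 CPM in the wild-type long-title libraries and at 2.57 and 2.22 CPM in the short-title ones. With T348I it stood at 0.878, 0.614 and 0.977 CPM in the long-title and at 0.370 and 0.917 CPM in the short-title libraries. All T348I libraries lay below all wild-type libraries, and wild-type long-title library 1 lay far above the others. The means were 3.46 ± 2.49 and 0.751 ± 0.254 CPM, and the log2 fold change of −2.16 ± 0.40 became −1.64 without wild-type long-title library 1. The T348I values rest on 5 to 16 reads per library.

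The MMP1 and MMP13 genes lie in the metalloproteinase cluster of 11q22 with 144834 bases between them. Per length, the ratio of MMP1 to MMP13 ran from 0.186 to 2.04 over the wild-type libraries and from 6.83 to 22.7 over the T348I libraries. The lowest ratio among T348I libraries was in short-title library 2, and the highest among wild-type libraries was in long-title library 2.

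**Figure D2:**
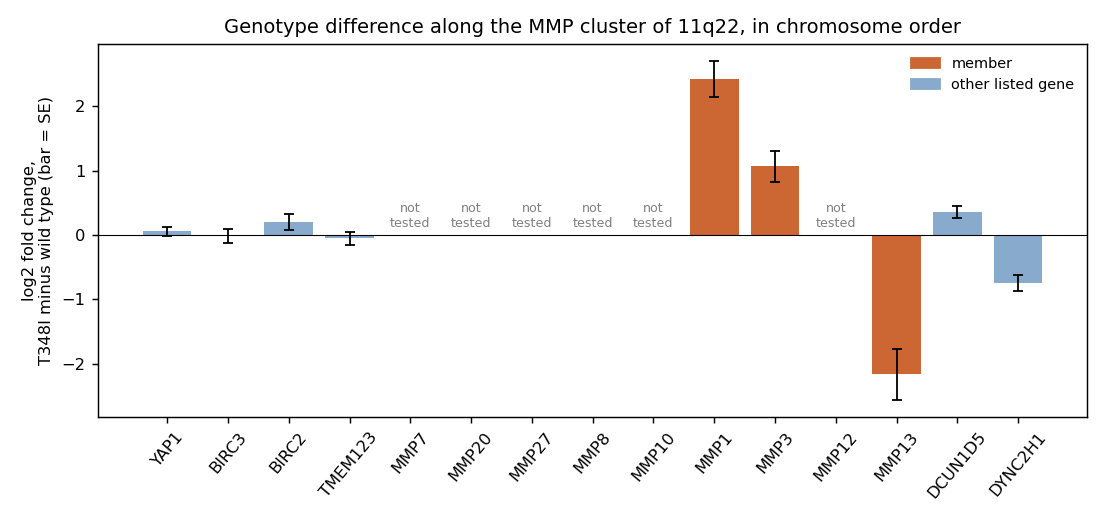
Bars give the log2 fold change of T348I against wild type, with whiskers of 1 SE, for the genes of the 11q22 cluster and their neighbours in chromosome order; genes under the count filter are marked as not tested. MMP1 (2.42) and MMP3 (1.07) lie above 0 and MMP13 (−2.16) below it, and the neighbours lie between −0.74 and 0.36.

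The stromelysins differed in level. MMP3 (ENSG00000149968.11, chr11:102835801-102843803, minus strand), which degrades proteoglycans and can activate procollagenases, stood at 2.90, 1.57 and 1.87 CPM in the wild-type long-title libraries and at 1.41 and 0.826 CPM in the short-title ones. With T348I it stood at 3.85, 3.48 and 4.39 CPM and at 3.77 and 2.24 CPM. Within each title set every T348I library lay above every wild-type library, but T348I short-title library 2 lay below wild-type long-title library 1. The log2 fold change was 1.07 ± 0.24. MMP10 (ENSG00000166670.9, chr11:102770503-102780628, minus strand) had 0 to 2 reads per library, under the 3 reads that a count of 0 allows, which came to 0.172 to 0.295 CPM, so no difference was detectable at this depth. The exons of MMP1 and MMP3 overlap those of the pseudogene WTAPP1 on the other strand, which had 0 to 2 reads.

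MMP2 (ENSG00000087245.12, chr16:55389700-55506691, plus strand), the gelatinase that also cuts type IV collagen, stood at 2025, 1260 and 1522 CPM in the wild-type long-title libraries and at 1063 and 1049 CPM in the short-title ones. With T348I it stood at 1046, 1066 and 1088 CPM and at 761 and 787 CPM. The T348I libraries lay below the wild-type libraries of the same title set, and the T348I long-title libraries reached the level of the wild-type short-title ones. The means were 1384 ± 406 and 949 ± 161 CPM, with a log2 fold change of −0.53 ± 0.11. MMP14 (ENSG00000157227.12, chr14:22836557-22849027, plus strand), its activator at the cell surface, stood at 608 ± 172 CPM with wild-type YES and 521 ± 35.2 CPM with T348I, and its libraries overlapped. Fitted alone, the long-title set gave a log2 fold change of −0.40 ± 0.14 and the short-title set one of 0.14 ± 0.14. Over all libraries it was −0.19 ± 0.12, and −0.069 without wild-type long-title library 1.

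Among the inhibitors, TIMP3, which is held in the extracellular matrix, was lower with T348I in each title set. TIMP3 (ENSG00000100234.11, chr22:32801701-32863043, plus strand) stood at 749, 629 and 697 CPM in the wild-type long-title libraries and at 855 and 1001 CPM in the short-title ones. The T348I libraries stood at 578, 584 and 574 CPM and at 543 and 652 CPM. Wild-type short-title library 2 was the highest, and T348I short-title library 2 was the only T348I library above a wild-type one. The means were 786 ± 146 and 586 ± 40.1 CPM, with a log2 fold change of −0.41 ± 0.10.

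TIMP2 (ENSG00000035862.12, chr17:78852977-78925387, minus strand) stood at 828, 695 and 772 CPM in the wild-type long-title libraries and at 475 and 551 CPM in the short-title ones, against 617, 631 and 636 CPM and 444 and 464 CPM with T348I. The genotypes did not overlap within a title set, but the gap in the short-title set, from 464 to 475 CPM, was small beside the distance between the wild-type short-title libraries. Its log2 fold change was −0.24 ± 0.08. TIMP2 shares exon bases with CEP295NL on its own strand, which had 1 to 7 reads.

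TIMP1 (ENSG00000102265.11, chrX:47582313-47586789, plus strand), an inhibitor that also has growth-promoting activity, was lower in the short-title libraries of both genotypes. Its level was 404, 762 and 906 CPM in the wild-type long-title libraries, 257 and 318 CPM in the wild-type short-title ones, 845, 872 and 845 CPM in the T348I long-title ones and 276 and 292 CPM in the T348I short-title ones. Wild-type long-title library 1 lay between the sets. The log2 fold change between genotypes was 0.18 ± 0.17 over all libraries and −0.0037 ± 0.14 in the short-title libraries alone. Omitting wild-type long-title library 1 gave 0.0098, and omitting library 3 of that set gave 0.29.

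RECK (ENSG00000122707.11, chr9:36036433-36124451, plus strand), which restrains MMP2, MMP9 and MMP14 at the cell surface, stood at 56.5, 42.5 and 40.0 CPM in the wild-type long-title libraries and at 30.8, 32.5 and 32.5 CPM in the T348I long-title ones. In the short-title sets it stood at 46.8 and 43.7 CPM with wild-type YES and at 42.4 and 43.4 CPM with T348I. The long-title T348I libraries were the low ones, and the short-title libraries of both genotypes were close together. Fitted alone, the long-title set gave a log2 fold change of −0.54 ± 0.14 and the short-title set one of −0.062 ± 0.12, and all libraries together gave −0.35 ± 0.11.

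**Figure D3:**
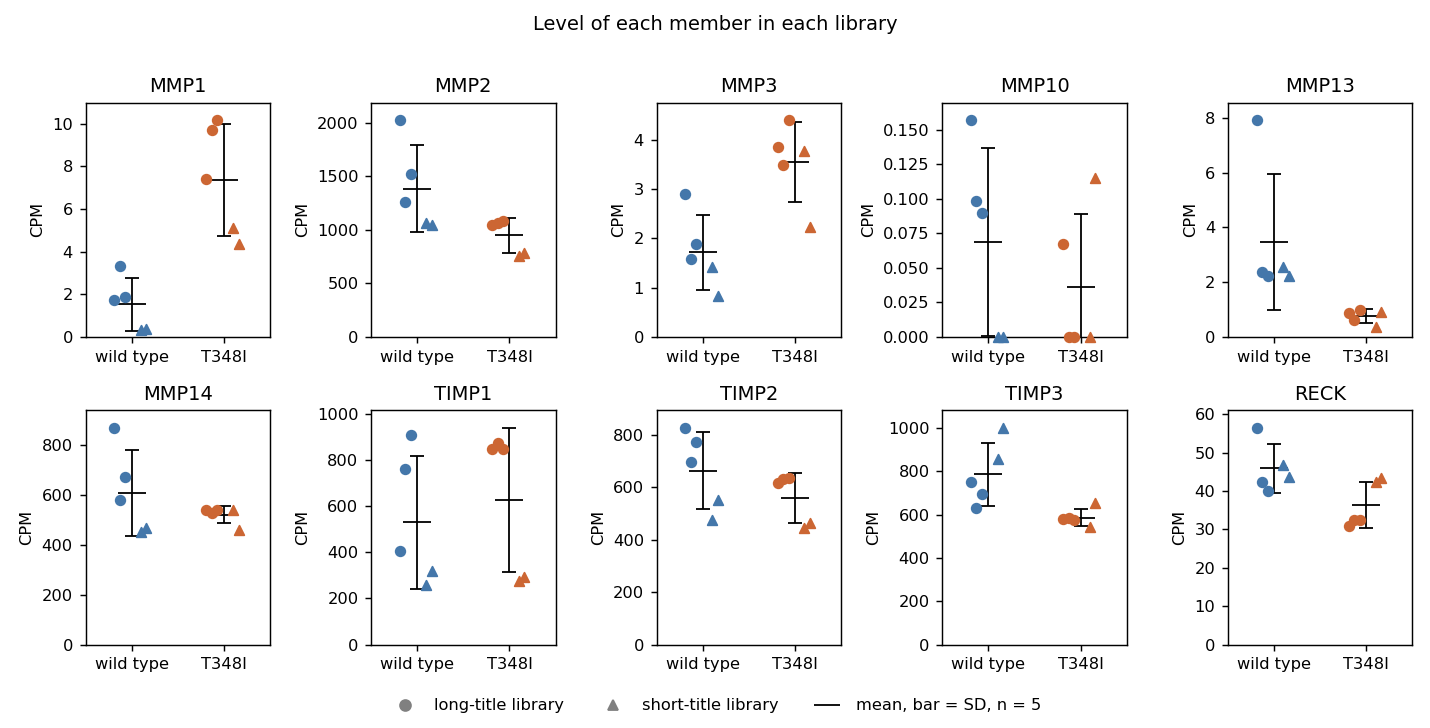
CPM of each member in every library, with its own linear axis from 0, by genotype; points are libraries shaped by title set, and the bar with its whiskers is the mean and SD over 5 libraries. Only MMP1 and MMP13 separate all T348I from all wild-type libraries, and TIMP1 separates by title set.

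Beside these values, the background in the whole table was high. Of 13743 genes tested, 27.0% passed an adjusted p of 0.05 for the genotype, 13.7% higher and 13.3% lower with T348I. Of the 9 members tested, 2 passed as higher (MMP1 and MMP3) and 5 as lower (MMP2, MMP13, TIMP2, TIMP3 and RECK), and nothing is read from that count because the list was made with this contrast known. All T348I libraries lay above all wild-type libraries for MMP1 and for 6.94% of all genes tested, and below them for MMP13 and for 4.15%, together 2 of the 9 members and 11.1% of all genes. Within both title sets and in the same direction, the genotypes did not overlap for 7 of the 9 members and for 25.2% of all genes tested. The median log2 fold change was −0.24 over the tested members and −0.03 over all tested genes. TIMP2 and RECK no longer passed when some single libraries were left out. For TIMP2 this held on omitting wild-type long-title library 3, the second wild-type short-title library or any 1 of the 5 T348I libraries, with log2 fold changes of −0.28 to −0.20 over all omissions. For RECK it held on omitting any 1 of the T348I long-title libraries or T348I short-title library 1, with −0.41 to −0.23, the last on omitting wild-type long-title library 1.

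**Figure D4:**
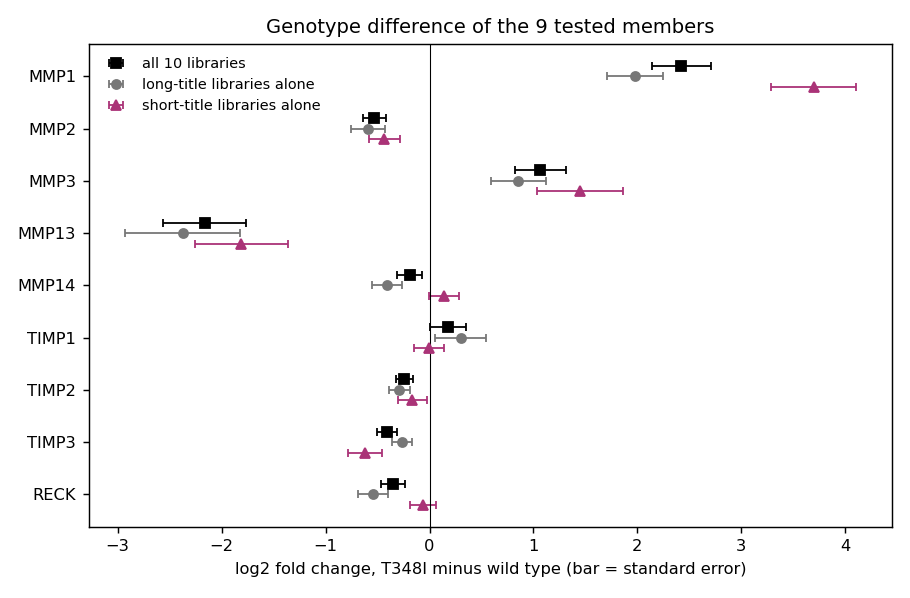
Log2 fold change of T348I against wild type for the 9 tested members, with its SE, over all libraries and in each title set alone. MMP1 and MMP3 lie above 0 and MMP2, MMP13, TIMP2, TIMP3 and RECK below 0 in both sets, whereas MMP14 and TIMP1 change sign between the sets.

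The title sets were not used to choose the members, and here the difference could be tested. Of the 9 tested members, 5 passed, all lower in the short-title libraries. Of all tested genes 43.1% passed, 21.0% higher and 22.1% lower in the short-title libraries. TIMP1 fell from 772 CPM in the 6 long-title libraries to 286 CPM in the 4 short-title ones, a log2 difference of −1.42 ± 0.18 (edgeR adjusted p = 5.92e-05). MMP1 fell from 5.70 to 2.54 CPM (−1.37 ± 0.29, adjusted p = 0.00200), TIMP2 from 697 to 484 CPM (−0.52 ± 0.08, adjusted p = 0.000266) and MMP2 from 1334 to 915 CPM (−0.53 ± 0.12, adjusted p = 0.00249). These 4 passed in all 18 alternatives. MMP14 passed at −0.36 ± 0.13 (adjusted p = 0.0380) but in 12 of the 18 alternatives, and not without wild-type long-title library 3, either wild-type short-title library or the second T348I short-title library, with values from −0.47 to −0.25 over all alternatives. MMP3 (−0.62 ± 0.25, adjusted p = 0.0621), MMP13 (−0.64 ± 0.40, adjusted p = 0.216), TIMP3 (0.24 ± 0.10, adjusted p = 0.0707) and RECK (0.20 ± 0.11, adjusted p = 0.177) did not pass, although MMP3 and TIMP3 passed in 4 of the 18 alternatives each, RECK in 2 and MMP13 in 1. Without wild-type long-title library 1, RECK (0.30) and TIMP3 (0.25) passed and the MMP13 difference was −0.062. Without T348I short-title library 1, MMP3 (−0.88) and TIMP3 (0.33) passed.

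**Figure D5:**
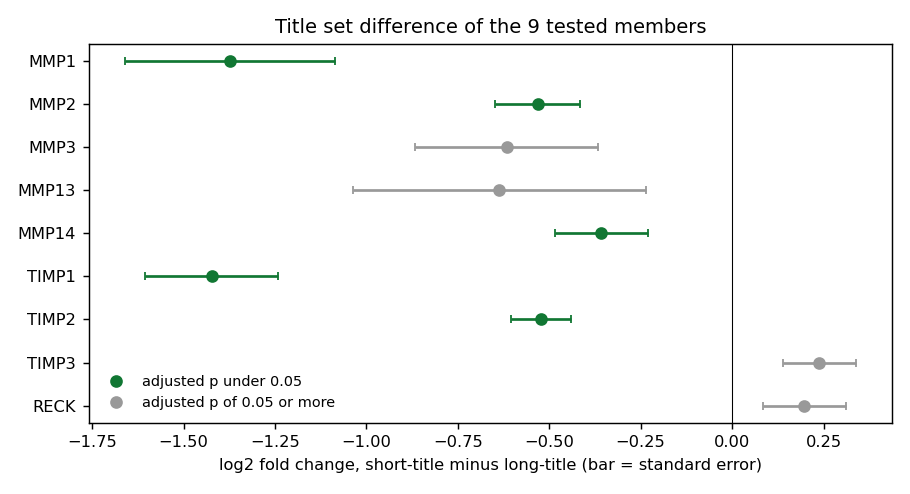
Log2 difference of the short-title from the long-title libraries for the 9 tested members, with its SE, at equal genotype. TIMP1 and MMP1 lie near −1.4, TIMP2, MMP2 and MMP14 between −0.53 and −0.36, and TIMP3 and RECK slightly above 0.

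Whether the genotype difference itself varied between title sets was tested as an interaction. On simulated counts this test recovered 34% of 2-fold and 84% of 4-fold interactions, so smaller ones can be missed. The simulation gave a gene the same dispersion in all libraries, whereas the spread of the real libraries was unequal, so these shares may not hold for them. No gene passed with edgeR (459 genes, or 3.34%, at an unadjusted p under 0.05), 2 passed with DESeq2 and 0 with limma-voom, and the adjusted p was 0.997 for each of the 9 tested members. The largest member value was that of MMP1, which differed by 1.98 ± 0.27 (log2 fold change) in the long-title and 3.70 ± 0.41 in the short-title libraries (interaction 1.70 ± 0.52, unadjusted p = 0.00637). The wild-type short-title value of MMP1 rests on 4 and 6 reads.

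Adding levels per length, the TIMPs came to 437 to 877 CPM per kilobase in wild-type and 376 to 805 in T348I libraries, and the metalloproteinases to 318 to 611 and 266 to 349. The ratio of TIMPs to metalloproteinases was 0.937 to 1.94 with wild-type YES and 1.35 to 2.36 with T348I. It was lowest in wild-type long-title library 1, where MMP2 and MMP14 were highest, and it exceeded 2 in the 3 T348I long-title libraries alone. TIMP1 made up 69.8% to 70.3% of the TIMP sum in the T348I long-title libraries and 38.2% and 39.6% in the wild-type short-title ones. No test was made on these sums.

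The rest of the family was mostly silent. Of 19 other MMP and TIMP genes, 5 passed the count filter, none rose and 1 fell, against the 27.0% of all genes. MMP17, a membrane-anchored enzyme, fell from 1.51 ± 0.574 to 0.796 ± 0.448 CPM (log2 fold change −1.0 ± 0.35, edgeR adjusted p = 0.0473). Its call was lost without any 1 of the T348I libraries, long-title library 1 or 3 of the wild type, or its short-title library 1, with values of −1.15 to −0.71 and adjusted p up to 0.118. MMP15 (−0.74 ± 0.31, adjusted p = 0.0887), MMP19 (−0.52 ± 0.29, adjusted p = 0.201), MMP24 (−0.18 ± 0.18, adjusted p = 0.497) and TIMP4 (0.20 ± 0.21, adjusted p = 0.494) did not pass.

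A list of 15 genes around the activation of pro-metalloproteinases, not all of them activators themselves, held 10 tested genes. Of these, 2 rose and 1 fell, against 13.7% higher and 13.3% lower over all genes tested. PLAU, the urokinase that makes plasmin, rose from 139 ± 33.0 to 225 ± 84.4 CPM (log2 fold change 0.65 ± 0.10, edgeR adjusted p = 0.000558), and its receptor PLAUR rose from 56.0 ± 22.1 to 76.5 ± 14.7 CPM (0.49 ± 0.13, adjusted p = 0.0138). The PLAUR libraries overlapped, and wild-type long-title library 1 stood highest of all, at 88.1 CPM. The PLAUR call was lost without the title set term, in the long-title libraries alone and on summing the T348I long-title libraries. HTRA1, a secreted serine protease, fell by 0.56 ± 0.17 on the log2 scale (adjusted p = 0.0231), a call lost without any 1 of the T348I long-title libraries or T348I short-title library 1 (−0.63 to −0.33). FURIN, which cuts the propeptide of MMP14, stood at 222 ± 40.9 and 217 ± 32.9 CPM (−0.04 ± 0.09, adjusted p = 0.788). The plasmin precursor PLG had at most 1 read in any library.

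Other inhibitors and clearance receptors moved in both directions, with 2 of 8 tested genes higher and 2 lower. Of all genes tested, 13.7% were called higher and 13.3% lower. TFPI2, a matrix-bound inhibitor of plasmin, rose from 22.6 ± 20.2 to 72.0 ± 57.7 CPM (log2 fold change 1.57 ± 0.21, edgeR adjusted p = 0.000213), with overlapping libraries. LRP1, the endocytic receptor that clears proteinase complexes, fell from 285 ± 111 to 151 ± 20.5 CPM (−0.92 ± 0.21, adjusted p = 0.00606). THBS2 fell by 0.72 ± 0.22 on the log2 scale (adjusted p = 0.0298), and this call was lost without any 1 of the T348I long-title libraries or either short-title library 1 (−0.82 to −0.38).

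The related ADAM and ADAMTS proteinases gave 1 rise and 2 falls among 8 tested genes each, against 13.7% and 13.3% of all genes tested. ADAM19 rose (log2 fold change 0.38 ± 0.09, edgeR adjusted p = 0.00597), while ADAM17, the TNF-releasing sheddase that TIMP3 inhibits, fell from 133 ± 25.7 to 109 ± 17.9 CPM (−0.28 ± 0.07, adjusted p = 0.00671) and ADAM28 fell (−0.95 ± 0.22, adjusted p = 0.00790). ADAMTS6 rose (0.84 ± 0.19, adjusted p = 0.00588), and ADAMTS10 (−1.42 ± 0.40, adjusted p = 0.0183) and ADAMTS7 (−0.88 ± 0.25, adjusted p = 0.0201) fell. The ADAMTS10 call was lost without either short-title library 1 (−1.63 to −1.08), and the ADAMTS7 call also without T348I long-title library 2 or T348I short-title library 2 (−1.04 to −0.73). ADAMTS7 and ADAMTS10 were below 3 CPM in the mean of either genotype.

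Transcription factors known to act on metalloproteinase promoters included 6 rises and 2 falls among 20 tested. Over all genes tested, the shares were 13.7% higher and 13.3% lower. FOSL1, an AP-1 subunit, rose from 65.9 ± 12.4 to 171 ± 37.6 CPM (log2 fold change 1.36 ± 0.14, edgeR adjusted p = 4.99e-05), with no overlap between genotypes and a call in all 23 alternatives. Among ETS factors, ETS2 rose from 24.4 ± 1.45 to 39.2 ± 7.04 CPM (0.67 ± 0.11, adjusted p = 0.000664), ETV4 by 0.57 ± 0.10 (adjusted p = 0.00136) and ETV5 by 0.35 ± 0.10 (adjusted p = 0.0159). ETV1 fell from 149 ± 19.7 to 106 ± 10.7 CPM (−0.49 ± 0.09, adjusted p = 0.00213) without overlap. JUND fell by 0.33 ± 0.10 (adjusted p = 0.0344), a call lost without long-title library 3 or short-title library 2 of the wild type, any 1 of the T348I long-title libraries or T348I short-title library 1 (−0.40 to −0.27). RUNX2, which acts on the MMP13 promoter, stood at 141 ± 23.9 and 125 ± 14.9 CPM (−0.18 ± 0.11, adjusted p = 0.252).

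Genes next to the 11q22 cluster were listed beside it. Of 6 tested, 1 rose and 1 fell, where 27.0% of all genes tested were called. YAP1 (log2 fold change 0.06 ± 0.08, edgeR adjusted p = 0.611), BIRC3 (−0.02 ± 0.11, adjusted p = 0.913), BIRC2 (0.21 ± 0.12, adjusted p = 0.242) and TMEM123 (−0.05 ± 0.10, adjusted p = 0.736) did not pass. DCUN1D5 rose by 0.36 ± 0.09 (adjusted p = 0.0117) and DYNC2H1 fell by 0.74 ± 0.13 (adjusted p = 0.00112). These differences were smaller than those of MMP1 and MMP13, and a shift of the region was not tested.

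Over the 101 listed genes outside the members, 65 were tested, 13 rose and 11 fell, against 27.0% called among all genes. Some markers of other cell types were called for the genotype as well, as 27.0% of all genes were. Of 5 epithelial markers 3 were tested and 1 rose, KRT18 (log2 fold change 0.40 ± 0.10, edgeR adjusted p = 0.00809). KRT8 (0.15 ± 0.10, adjusted p = 0.255) and EPCAM (−0.51 ± 0.28, adjusted p = 0.194) did not pass, and CDH1 had no more than 3 reads. The epithelial markers summed to 673 to 917 CPM in wild-type and 860 to 1001 CPM in T348I libraries. All 8 mesenchymal markers passed the filter and 4 fell: COL3A1 (log2 fold change −2.46 ± 0.76, edgeR adjusted p = 0.0292), PDGFRB (−1.13 ± 0.29, adjusted p = 0.0114), FAP (−0.80 ± 0.17, adjusted p = 0.00354) and DCN (−1.0 ± 0.18, adjusted p = 0.00156). COL1A1 (−1.20 ± 0.56, adjusted p = 0.132), COL1A2 (−0.96 ± 0.37, adjusted p = 0.0700), VIM (0.15 ± 0.12, adjusted p = 0.375) and CDH2 (0.05 ± 0.10, adjusted p = 0.726) did not pass. The summed level of all 8 mesenchymal markers ran from 1499 to 7881 CPM over the wild-type and from 1547 to 5327 CPM over the T348I libraries. CD14 (−1.58 ± 0.48, edgeR adjusted p = 0.0279) was the only tested gene of 5 immune markers, with CD3E at 0 reads and CD68 at most 2. It stood at 13.9 ± 17.6 CPM with wild-type YES and 3.98 ± 1.15 CPM with T348I, with 33 to 576 reads and overlapping libraries. PECAM1 (−1.15 ± 0.28, edgeR adjusted p = 0.00985) was the only tested gene of 4 endothelial markers. The marker calls are given without the omission of single libraries. The immune markers summed to 5.14 to 45.5 CPM and 3.10 to 6.15 CPM in wild-type and T348I libraries, and the endothelial ones to 5.47 to 14.2 and 3.17 to 5.16 CPM. The part of such markers in the member differences was not tested.

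The genes whose pattern over the 10 libraries was most like that of a collagenase were found from the root mean square difference of centred log2 CPM, among protein-coding genes whose log2 CPM averaged at least 1. For MMP1, with 11053 genes compared and a median difference of 1.51, these were STC1 (0.71), a secreted glycoprotein, SHISA9 (0.74), LIF (0.80), a cytokine, PSAT1 (0.85), an enzyme of serine synthesis, and TGM2 (0.90), a protein cross-linking enzyme. STC1 stood at 159 CPM with wild-type YES and 359 CPM with T348I on average, and LIF at 32.9 and 76.7 CPM. For MMP13, with 11054 genes compared and a median of 1.11, they were COL24A1 (0.36), a fibrillar collagen, CHI3L1 (0.37), a chitinase-like secreted protein, KLRD1 (0.40), HR (0.41) and BMF (0.41). CHI3L1 stood at 1031 CPM with wild-type YES and 305 CPM with T348I. This measure is a description over libraries that share genotype and title set, and the genotype pattern of both collagenases chose these genes.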

How the data were processed

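Poly(A) RNA libraries made with a stranded kit were sequenced, and per the submitters' processing notes CASAVA 1.8.2, Trimmomatic 0.35, STAR 2.5.1b and the build GRCh38 were used. The annotation used for counting is not given in the sources used here. The deposited tables hold whole-number read counts per gene for 1 library each, without normalization, and the opposite-strand counts were used (92.2% to 94.5% of strand-assigned reads). Lines that name no gene held 20.7% to 30.0% of reads and were left out, as were 45 chromosome Y copies of pseudoautosomal genes. Symbols, coordinates and exon lengths came from GENCODE 29 (57836 of 58174 identifiers matched), and upstream bases from RefSeq (GRCh38.p14). Sequences were printed only upstream of the first GENCODE base of a gene, or as a short stretch.

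Genes were kept by filterByExpr in edgeR 4.0.16 (R 4.3.3; minimum count 10, minimum total 15), then normalized by TMM, and a quasi-likelihood F test was run in a model of title set plus genotype. The Benjamini-Hochberg adjustment covered 13743 genes, with a threshold of 0.05. CPM are TMM-scaled, and each SE was obtained by dividing the size of the log2 fold change by the root of its F. The title set was tested in the same model, and the interaction in a model with that term added. The 3-read limit covers counting error only, whereas each SE also holds the spread between libraries.

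The members and gene lists were chosen with earlier results of these data known. Outside the members, genes were named from each list by a rule: up to 4 called genes of lowest p per direction, all tested genes of the MMP family and of 11q22, and the 5 genes most like MMP1 and MMP13; other genes are named as background or markers. A gene that the rule gave is not reported here. As alternatives, scaling was changed (RLE, or library sizes only), the tool (DESeq2 1.42.0, limma-voom in limma 3.58.1), the filter (none, or 1 CPM in 5 libraries), the counts (unstranded) and the model (no title set term, each set alone, T348I long-title libraries summed, a block for the replicate number), and single libraries were omitted in turn. Leaving out 2 wild-type libraries together, and summing in the title set test, were added after the data were seen. The tests were checked on simulated counts with 50 changed genes per fold size. At 2-fold, 86% were recovered for the genotype, 78% for the title set and 34% for the interaction. False calls made up 2.21%, 7.87% and 12.7% of all calls, in that order. These shares hold for equal dispersion in all libraries and no title set difference beyond the one tested, which the real libraries do not meet.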

Additional observations from a re-analysis of the deposited data

Results flagged for a closer look

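In 18 groups of 5 libraries (9 members in each genotype), 2 held a library far from the others by Dixon's criterion, where chance gives about 1 in 20. MMP13 stood at 7.92 CPM in wild-type long-title library 1, against 2.22 to 2.57 CPM in the other wild-type libraries. MMP14 stood at 459 CPM in T348I short-title library 2, against 526 to 541 CPM in the other T348I libraries.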

How the results depend on the processing

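The genes called for the genotype numbered 1315 without the title set term, 1197 in the long-title and 1534 in the short-title libraries alone, and 1462 on summing the T348I long-title libraries, against 3709, with 62.2%, 58.3%, 61.0% and 61.5% of them higher against 50.8%. In the same order, 2, 3, 4 and 3 of the 7 members and 7, 9, 14 and 10 of the 24 listed genes outside them passed. Leaving out 1 library gave 2450 to 4676 genes (2450 without T348I short-title library 1), and leaving out both wild-type long-title libraries 1 and 2 gave 4359. The interaction gave 2 genes with DESeq2, 91 without the low-count filter and 0 to 1 when 1 library was left out. The sign turned for MMP14 (0.14) and TIMP1 (−0.0037) in the short-title libraries alone, and for TIMP1 (−0.041) without both wild-type long-title libraries 1 and 2. The cause of these changes was not tested, though each set alone and the summed fit use fewer libraries.

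Same-numbered libraries of the genotypes did not all deviate together (r from −0.025 to 0.217 across genes), so the numbers were not taken to pair them. A replicate block gave 3741 genes, and TIMP2 and MMP17 no longer passed with it, while no other call of a named listed gene changed. Depth limits MMP1, MMP3 and MMP13, which had at most 142 reads in a library, and leaves MMP10 unmeasured. Differences are relative to the counted poly(A) reads of a library after TMM scaling, and no protein or proteinase activity was measured.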

Other observations

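Some metalloproteinase genes that did not pass the count filter were unevenly read across libraries. MMP9, the gelatinase of leukocytes and invasive cells, had 54 reads (4.23 CPM) in wild-type long-title library 1 and 1 to 6 reads (0.0739 to 0.405 CPM) in the other 9 libraries. MMP16, a membrane-bound enzyme, had 32 and 66 reads in the wild-type and 43 and 61 reads in the T348I short-title libraries (at least 2.65 CPM), and 0 to 4 reads in the 6 long-title libraries. MMP28 had 7 to 17 reads in the 4 short-title libraries and 0 in the 6 long-title ones. MMP26 had 18 and 23 reads in the short-title libraries of wild type and 0 to 10 elsewhere. MMP27 had no read in any library.

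MMP24, a membrane-bound enzyme, also differed by title set: it was higher in the short-title libraries, and rose from 4.81 CPM in the long-title to 15.2 CPM in the short-title libraries (log2 difference 1.68 ± 0.18, edgeR adjusted p = 1.50e-05). This is opposite in direction to TIMP1, MMP1, MMP2, MMP14 and TIMP2. What distinguishes the title sets is not stated, so what these differences follow was not tested.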
